A study of Arabidopsis thaliana with 6 samples.

Results

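The 9 genes described here act at the start of RNA-directed DNA methylation in Arabidopsis thaliana, in the arm of RNA polymerase IV (Pol IV) that makes small RNAs. They are CLSY1 (AT3G42670), CLSY2 (AT5G20420), CLSY3 (AT1G05490), CLSY4 (AT3G24340), SHH1 (AT1G15215), NRPD1 (AT1G63020), NRPD2 (AT3G23780), RDR2 (AT4G11130) and DCL3 (AT3G43920). The rule that picks them lists locus identifiers and no measured value, and they make up 9 of the 33554 loci listed in every library. All 9 were among the 19671 measured genes, that is, genes that reach 1 FPKM in some library. RNA was sequenced from root meristem cells that had been isolated by fluorescence sorting. The seedlings were 6 days old and grew under 16 hours of light on a medium with sucrose, and 6 libraries cover 5 cell types. Values are FPKM as deposited, a read level scaled to transcript length and to the mapped total of the library.

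The cell types were set by green fluorescent protein lines. ProWER:GFP gave the epidermis, ProAT1G09750:GFP the cortex, ProSCR:GFP line1 and ProSCR:GFP line2 the 2 endodermis libraries, ProWOL:GFP the stele (the central cylinder) and the PET111 enhancer trap line the columella root cap. No mutant, treatment or other genotype is part of the labels, so, as far as they say, the groups differ by reporter line and sorted cell type. A sorted population holds the cells in which its promoter or trap is active, and the number of seedlings behind each library was not stated in the labels. Only endodermis has 2 libraries. The other 4 cell types have 1 library each, so their values have no replicate check.

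In this pathway, Pol IV transcribes transposons and other silent loci, RDR2 copies each transcript into double-stranded RNA as it is made, and DCL3 dices the duplex into short interfering RNAs. Those RNAs are loaded into Argonaute proteins that meet transcripts of a second plant polymerase, Pol V, and bring the methyltransferase DRM2 to the locus. Pol IV does not find its loci alone. SHH1 reads a histone mark of silent chromatin, and the CLASSY proteins, a family of putative chromatin remodellers of the SNF2 type, are needed for Pol IV to act at particular groups of loci, with CLSY1 and CLSY2 working together with SHH1 and CLSY3 and CLSY4 at other loci.

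The labels were checked against marker genes. WER, AED3 (AT1G09750) and SCR, the genes behind the epidermis, cortex and endodermis reporters, and WOL for the stele, were each highest in the library labelled with them, and 6 of 8 root cap markers were highest in columella root cap. The second cortex marker, CO2, went against the cortex label, at 2.39 FPKM in cortex and 6.97 in endodermis line 2. The 2 endodermis lines stood far apart, with CASP1, a scaffold protein of the Casparian strip, at 2045 FPKM in line 1 and 85.2 in line 2. They differed 2-fold or more at 35.1% of the measured genes, against 10.2% between line 2 and cortex. Between 15999 and 17096 loci per library reached 1 FPKM. Read totals per library were not used here, and the value of 1 read, estimated from low loci, ranged from 0.986-fold to 1.60-fold of that in endodermis line 1.

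The bases just upstream of CLSY2, NRPD1 and RDR2 are shown because these genes were among the 4 that stood highest in the columella root cap by the largest ratios. Each window is the 250 bases before the first annotated base of the gene in RefSeq (assembly TAIR10.1), 5′ to 3′ on the strand of the gene, and in RDR2 the 45 bases that belong to the neighbouring gene are left out, which leaves 205. In CLSY2 capitals mark ACAAATCACAGCCGTCTANTTTTNTCNT, a repeated word read from this window as the bases that its copies share, with N where they differ. In NRPD1 and RDR2 capitals mark TTGAC, the core bound by WRKY factors, on either strand.
CLSY2 (chr5:6904243-6904492, minus strand): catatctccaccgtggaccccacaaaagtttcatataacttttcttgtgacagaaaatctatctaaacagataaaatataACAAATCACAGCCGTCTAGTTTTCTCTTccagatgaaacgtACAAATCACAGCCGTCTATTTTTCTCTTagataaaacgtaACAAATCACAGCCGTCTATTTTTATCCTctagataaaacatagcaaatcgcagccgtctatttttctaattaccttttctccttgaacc
NRPD1 (chr1:23362590-23362839, minus strand): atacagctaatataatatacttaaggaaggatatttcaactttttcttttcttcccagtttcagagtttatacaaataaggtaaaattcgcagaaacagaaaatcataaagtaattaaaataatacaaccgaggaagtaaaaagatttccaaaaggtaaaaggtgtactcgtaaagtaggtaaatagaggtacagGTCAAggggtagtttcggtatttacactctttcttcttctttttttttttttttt
RDR2 (chr4:6780244-6780448, plus strand): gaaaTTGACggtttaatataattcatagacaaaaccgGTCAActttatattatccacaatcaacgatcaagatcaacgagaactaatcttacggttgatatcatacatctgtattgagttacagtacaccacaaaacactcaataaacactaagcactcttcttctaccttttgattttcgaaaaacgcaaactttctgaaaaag

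In CLSY2 a word of 28 positions stands 3 times, starting at -170, -129 and -89 from the gene, with other bases between the copies. A further run after the last copy resembles the word. It differs at positions that the copies share and was not counted. Of 27443 windows of equal length before protein-coding genes, 1 holds the word on either strand, that of CLSY2, and the nuclear chromosomes hold 3 copies in all. Only copies that match at every position other than N are counted. As the word was read from this window, these counts are a description only. Motifs were counted in the windows of the 8 members other than CLSY1. TTGAC was found in 6 of the 8, CLSY3, CLSY4, NRPD1, NRPD2, RDR2 and DCL3, and in 44.9% of all windows. CTT and AAG set 7 bases apart, a pattern described for NAC factors of the VND type, was found in RDR2 alone among the 8, and in 9.71% of all windows. TATAAA was found in SHH1, NRPD1 and RDR2 (47.3% of all), AACGG, the core of elements of mitotic genes, in CLSY3 and RDR2 (20.6%), in RDR2 within the 45 bases not printed, TGGGCC in SHH1 and DCL3 (13.7%) and TGTCTC, an auxin response element, in SHH1 (10.9%). CACGTG and TTTCCCGC were in none of the 8, and in 6.49% and 0.619% of all windows. All searches covered both strands.

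**Figure D1:**
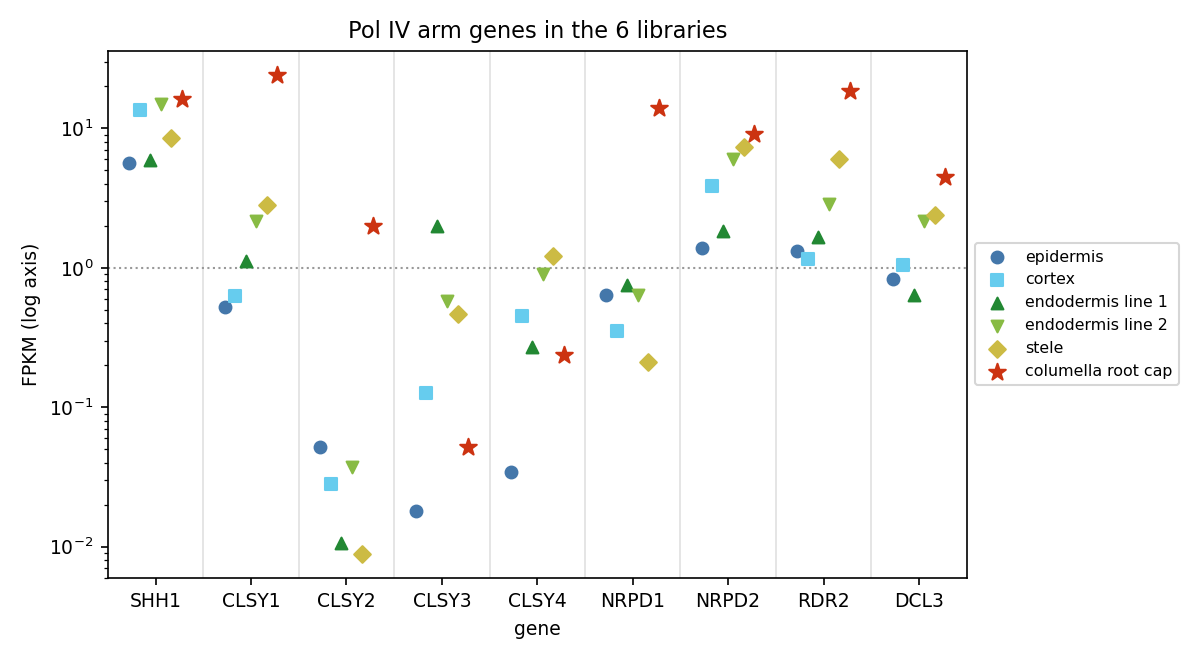
FPKM of the 9 genes (x axis) on a log axis, 1 point for each of the 6 libraries, with the dotted line at 1 FPKM. The columella root cap (star) is highest for 7 genes, NRPD1 by the gap from 0.753 to 14.1 FPKM, and is low for CLSY3 and CLSY4.

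Across the 6 libraries the columella root cap held most of the high values of the Pol IV arm. It stood above every other library for 7 of the 9 genes, while 23.2% of all measured genes did so. The exceptions were CLSY3, highest in endodermis line 1, and CLSY4, highest in stele. NRPD1 and CLSY2 reached 1 FPKM in columella root cap alone, CLSY3 in endodermis line 1 alone and CLSY4 in stele alone. These genes therefore counted as measured only through their highest library. In such sorted pools, fewer cells of a type and less RNA per cell cannot be told apart. The median difference of the 9 genes on the log2(FPKM + 1) scale, columella root cap minus the mean of the remaining 4 cell types, was 1.25, against -0.05 over all measured genes. At the other end, the epidermis was the lowest library for 5 of the 9 genes, CLSY1, CLSY3, CLSY4, SHH1 and NRPD2, where 32.6% of all measured genes had their lowest value, below every other library, in epidermis. All 9 values in epidermis lay below the mean of the remaining 4 cell types, with a median difference of -0.74 against -0.39 over all measured genes. Only 34.1% of measured genes lay above that mean in epidermis. The mean also holds the columella root cap, where 7 of the 9 genes were highest. The low epidermis level was not particular to the 9 genes. Of 28 other measured pathway genes, described below, 22 had their lowest value in epidermis. The median difference there was -0.93 for 11 other Pol IV subunits and -1.09 for 17 genes of the Pol V and DRM2 arm.

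The recruiters come first in the pathway. SHH1 was measured at 5.66 FPKM in epidermis, 13.6 in cortex, 5.90 and 15.04 in endodermis lines 1 and 2, 8.47 in stele and 16.3 in columella root cap. Columella root cap and endodermis line 2, the highest libraries, were 1.09-fold apart, and epidermis and endodermis line 1 were the lowest. The mean of the endodermis lines was 10.5 ± 6.46 FPKM (SD, n = 2), and every step between neighbouring cell types in the order of SHH1 was smaller on the log2(FPKM + 1) scale than the step of 1.22 between those lines. SHH1 was thus present in every layer at more than 5 FPKM, which no other member was.

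CLSY1, the CLASSY protein known from the spread of silencing between cells, was at 0.523 FPKM in epidermis, 0.630 in cortex, 1.11 and 2.18 in endodermis lines 1 and 2, 2.82 in stele and 24.3 in columella root cap. The columella root cap stood 8.62-fold above the next library, stele, and the other 5 values did not reach 3 FPKM. CLSY2 was at 0.0519 FPKM in epidermis, 0.0281 in cortex, 0.0106 and 0.0373 in endodermis lines 1 and 2, 0.00888 in stele and 1.99 in columella root cap. It was the lowest of the 9 genes in cortex, both endodermis lines and stele, and reached 1 FPKM in a single library. Its columella root cap value stood 38.4-fold above epidermis, the next library, a ratio for which no counting interval can be set.

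CLSY3 and CLSY4, known for directing Pol IV in reproductive tissues such as the ovule, had another pattern. CLSY3 was at 0.0179 FPKM in epidermis, 0.127 in cortex, 1.99 and 0.575 in endodermis lines 1 and 2, 0.463 in stele and 0.0516 in columella root cap. Endodermis line 1 was the highest, and line 2 exceeded stele by a log2 margin of 0.11 only, a margin that turned to -0.0051 with quantile normalization and was 1.03 with line 1 alone. CLSY4 was at 0.0343 FPKM in epidermis, 0.449 in cortex, 0.271 and 0.910 in endodermis lines 1 and 2, 1.21 in stele and 0.238 in columella root cap. Stele was the highest library for CLSY4, and the columella root cap value lay below both endodermis lines, cortex and stele.

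Since FPKM is scaled to transcript length, the 4 CLASSY genes can be set side by side within a library. Their summed level was 26.6 FPKM in columella root cap, where CLSY1 made up 91.4%, CLSY2 7.50%, CLSY4 0.895% and CLSY3 0.194%. In stele the sum was 4.50 FPKM, with 62.6% CLSY1, 26.9% CLSY4, 10.3% CLSY3 and 0.197% CLSY2. Cortex, at a sum of 1.23 FPKM, had 51.0% CLSY1 and 36.4% CLSY4. The endodermis lines had similar sums, 3.39 and 3.70 FPKM, and different leading genes. In line 1 CLSY3 led with 58.9% and CLSY1 had 32.8%, and in line 2 CLSY1 led with 58.9% and CLSY4 had 24.6%, so that the CLSY1 share in endodermis was 45.9% ± 18.5 (SD, n = 2). In epidermis, CLSY1 had 83.4%, of a sum of only 0.627 FPKM. CLSY1 was therefore the leading CLASSY gene in 5 of 6 libraries, at sums that ranged from 0.627 to 26.6 FPKM.

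**Figure D2:**
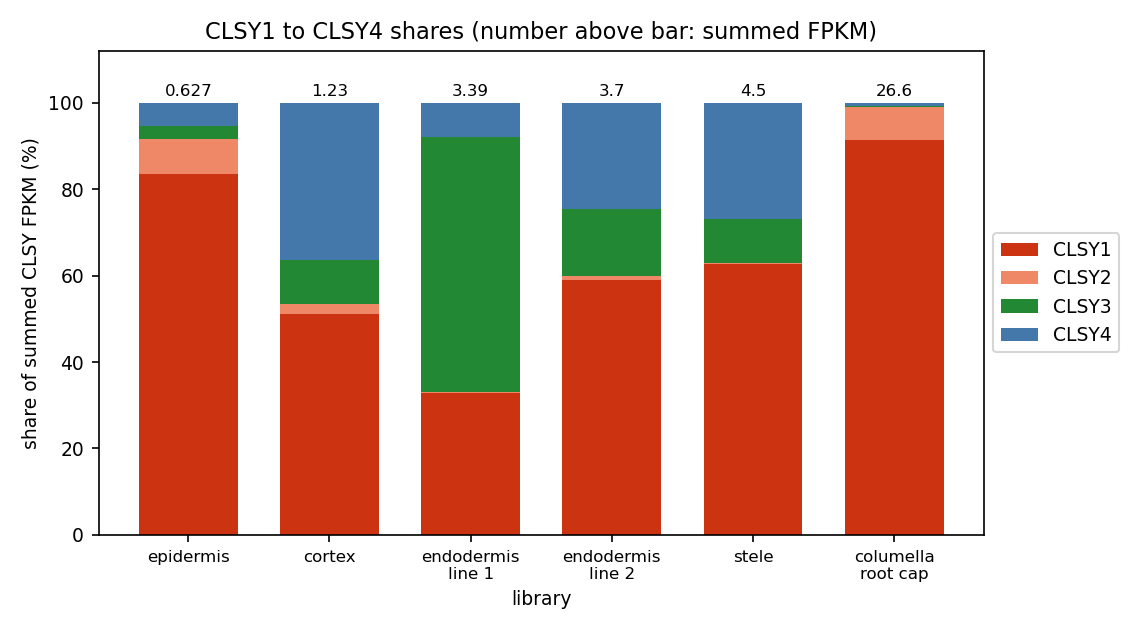
Share of CLSY1, CLSY2, CLSY3 and CLSY4 in their summed FPKM (y axis, %) in each of the 6 libraries (x axis), with the sum in FPKM above each bar. CLSY1 takes 91.4% in columella root cap, and CLSY3 leads in endodermis line 1 alone, with 58.9%.

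Pol IV itself has a catalytic largest subunit of its own, NRPD1, and a second largest subunit, NRPD2, that it shares with Pol V. NRPD1 was at 0.640 FPKM in epidermis, 0.352 in cortex, 0.753 and 0.643 in endodermis lines 1 and 2, 0.211 in stele and 14.1 in columella root cap. The 5 libraries outside the columella root cap all lay under 1 FPKM, and the columella root cap stood 18.7-fold above the highest of them. The endodermis lines, which differed for most other members, were close for NRPD1, at 0.698 ± 0.0776 FPKM (SD, n = 2). NRPD2 was at 1.38 FPKM in epidermis, 3.87 in cortex, 1.83 and 6.01 in endodermis lines 1 and 2, 7.38 in stele and 9.14 in columella root cap. The columella root cap value was the highest, at 1.24 times that of stele, so NRPD2 lacked the wide gap seen for NRPD1. A near copy, NRPD2B (AT3G18090), was at 0.0988 to 1.04 FPKM in the 6 libraries, and how reads shared by the copies were assigned was not stated in the labels.

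The balance between the 2 polymerases was examined within each library. NRPD1 exceeded NRPD2 in columella root cap, at a ratio of 1.54, and was below it in every other library, at ratios of 0.463 in epidermis, 0.0912 in cortex, 0.411 and 0.107 in endodermis lines 1 and 2 and 0.0285 in stele. NRPE1 (AT2G40030), the largest subunit of Pol V, was at 1.05 FPKM in epidermis, 1.85 in cortex, 1.38 and 4.14 in endodermis lines 1 and 2, 6.12 in stele and 4.53 in columella root cap. The ratio of NRPD1 to NRPE1 was thus 3.11 in columella root cap, and between 0.0344 in stele and 0.610 in epidermis elsewhere. NRPB1 (AT4G35800), the largest subunit of RNA polymerase II, ranged from 24.4 to 59.0 FPKM. NRPD1 amounted to 26.1% of NRPB1 in columella root cap and to between 0.357% in stele and 2.87% in endodermis line 1 in the other libraries, while NRPE1 amounted to between 4.30% and 10.8% of NRPB1 throughout.

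RDR2 and DCL3 process the Pol IV transcript. RDR2 was at 1.33 FPKM in epidermis, 1.16 in cortex, 1.68 and 2.86 in endodermis lines 1 and 2, 6.00 in stele and 18.7 in columella root cap. The columella root cap stood 3.11-fold above stele, and stele in turn above both endodermis lines. DCL3 was at 0.836 FPKM in epidermis, 1.04 in cortex, 0.635 and 2.16 in endodermis lines 1 and 2, 2.41 in stele and 4.51 in columella root cap. The columella root cap was the highest library for DCL3 by 1.87-fold, and the lowest was endodermis line 1.

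Paralogues of RDR2 and DCL3 that serve other small RNA pathways were compared in the same libraries. RDR6 (AT3G49500), which makes double strands for trans-acting small interfering RNAs, was at 9.04 FPKM in columella root cap and between 3.86 and 15.4 elsewhere, highest in stele. The ratio of RDR2 to RDR6 was 2.07 in columella root cap and at most 0.389 elsewhere. RDR1 (AT1G14790), an antiviral polymerase, was at 3.61 FPKM in columella root cap and at most 0.301 elsewhere. DCL1 (AT1G01040), the microRNA enzyme, was at 3.81 FPKM in columella root cap and highest in stele at 6.36, and the ratio of DCL3 to DCL1 was 1.19 in columella root cap and between 0.125 and 0.745 elsewhere. DCL4 (AT5G20320), which dices precursors of trans-acting small interfering RNAs, was at 8.40 FPKM in columella root cap and at most 2.87 elsewhere. It was the only one of these paralogues enriched there by the 2-fold rule used for all genes, which also needs 5 FPKM. RDR1 had a wider log2 margin there, 1.82 against 1.28 for DCL4, but its level was below 5 FPKM. DCL2 (AT3G03300), of antiviral silencing, was at 6.77 FPKM in columella root cap and between 3.63 and 10.04 elsewhere. RDR3 and RDR4 stayed under 1 FPKM in every library, RDR5 was highest in stele at 5.48 FPKM, the small RNA methyltransferase HEN1 (AT4G20910) was highest there at 9.81, and SHH2, the paralogue of SHH1, ranged from 13.0 to 26.7 FPKM.

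**Figure D3:**
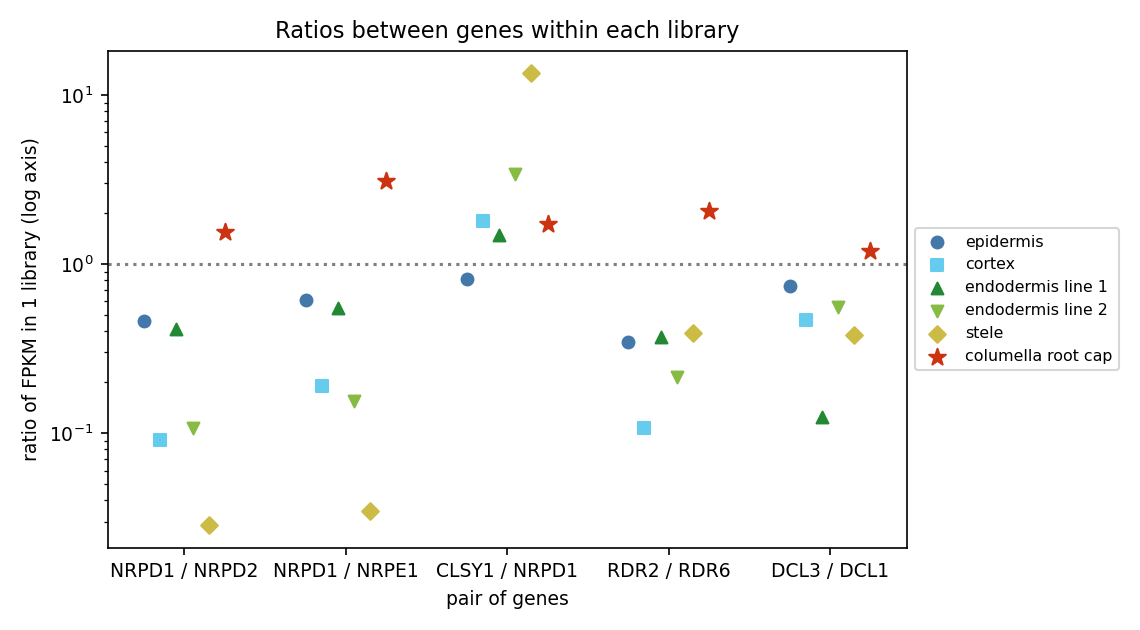
Ratio of FPKM between pairs of genes within the same library (y axis, log), 1 point for each of the 6 libraries, with the dotted line at equal levels. The columella root cap (star) lies above 1 for all 5 pairs, and for NRPD1 over NRPD2, NRPD1 over NRPE1, RDR2 over RDR6 and DCL3 over DCL1 it is the only library there.

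The size of these gaps was then set against all genes. Enriched here means a value of 5 FPKM or more that, on the log2(FPKM + 1) scale, exceeds by 2-fold or more the highest library outside the cell type. Depleted means 2-fold or more below the lowest such library, where that library has 5 FPKM or more. Under this rule of size, which gives no p-value, CLSY1, NRPD1 and RDR2 were enriched in columella root cap, 3 of 9, where 5.44% of measured genes were. Their log2 margins were 3.11 for NRPD1, 2.73 for CLSY1 and 1.49 for RDR2, and NRPD1 ranked 96 and CLSY1 153 among the 19671 measured genes. NRPD1 is among those genes through its columella root cap value alone, so its rank is a description only. CLSY2 had a margin of 1.51 and was not enriched, as its level was below 5 FPKM. The margins of DCL3, NRPD2 and SHH1 were 0.69, 0.27 and 0.11.

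No member was enriched in epidermis, cortex, endodermis or stele, where 4.46%, 0.824%, 0.681% and 1.55% of measured genes were. None was depleted in epidermis, cortex, stele or columella root cap either, against 0.966%, 0.0458%, 2.2% and 1.11% of measured genes, and no gene at all was depleted in endodermis. The depleted rule needs 5 FPKM in every library outside the cell type, which SHH1 alone among the members had, so the other 8 could not meet it.

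**Figure D4:**
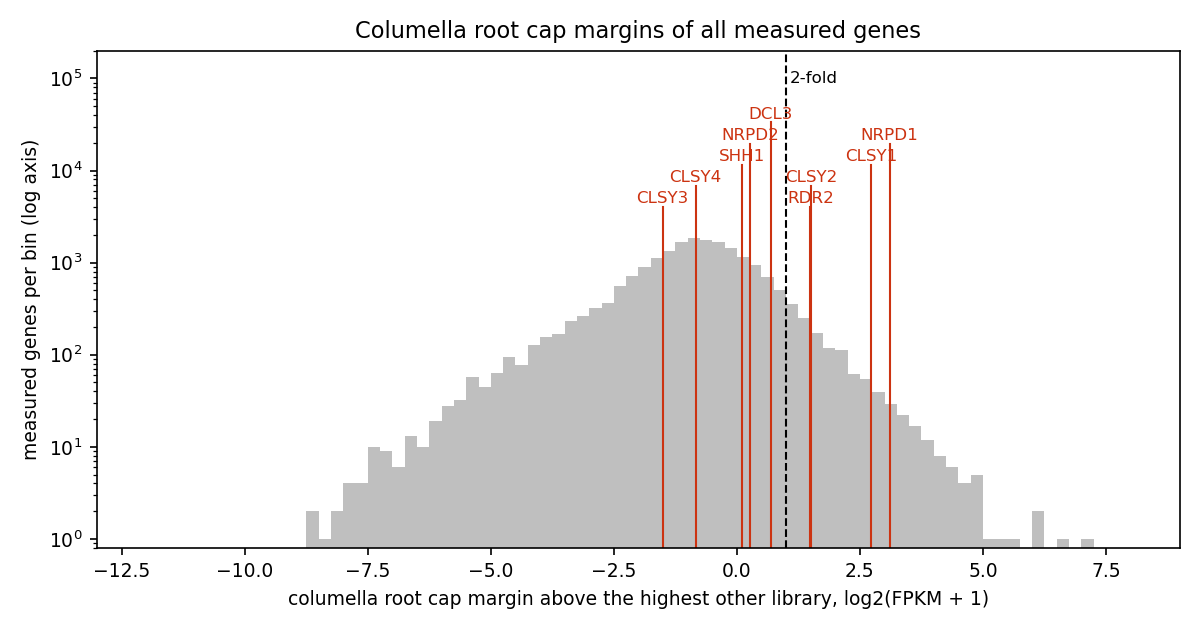
Number of measured genes (y axis, log) by their log2(FPKM + 1) margin in columella root cap above the highest other library (x axis), with the 9 members as red lines and the 2-fold margin dashed. NRPD1 at 3.11 and CLSY1 at 2.73 lie far out in the upper tail, while CLSY3 and CLSY4 lie below 0.

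The only replicate spread in the data is that between the endodermis lines, and it was wide. Leaving aside CLSY2, which was under 0.1 FPKM in both, line 2 exceeded line 1 for 6 of 8 genes, by 1.71-fold for RDR2 to 3.40-fold for DCL3, and lay below it for CLSY3 and NRPD1, at ratios of 0.289 and 0.854. Of the 36 steps between neighbouring cell types in the orders of the 9 genes, 8 were larger than the step between the lines for the same gene. These were the steps from columella root cap to the next cell type for CLSY1, CLSY2, NRPD1 and RDR2, from endodermis to cortex for CLSY1, from stele to endodermis for RDR2, and from epidermis to cortex and from cortex to stele for NRPD1. Measured against the 95th percentile of the line difference over the 1000 genes nearest in level, a wider yardstick, 1 step remained larger, the 3.15 between columella root cap and endodermis for NRPD1. All other neighbours in the orders did not differ beyond that spread. The share of such steps over all measured genes was not worked out, so these counts only describe the 9 genes.

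As a secondary test, limma set each cell type against the average of the remaining 4 over all measured genes, with Benjamini-Hochberg adjustment, and a call needed a log2 difference of at least 1 besides an adjusted p below 0.05. A cell type with 1 library is assumed here to vary as much as the endodermis lines did. In columella root cap 3 members were called higher, where 4.71% of measured genes were, and none lower, where 0.336% were. NRPD1 differed by 3.37 ± 0.599 (SE) on the log2(FPKM + 1) scale with a limma adjusted p of 3.07e-06, CLSY1 by 3.51 ± 0.841 with an adjusted p of 0.00156 and CLSY2 by 1.54 ± 0.334 with an adjusted p of 0.000293. NRPD1 and CLSY2 were under 1 FPKM in every other library and so entered the tested genes through the columella root cap value alone. RDR2, enriched by the rule of size, was not called by limma (2.59 ± 0.959, adjusted p = 0.106), nor were DCL3 (1.25 ± 0.704, adjusted p = 0.483), NRPD2 (1.15 ± 1.01, adjusted p = 0.802) and SHH1 (0.81 ± 1.01, adjusted p = 0.908). The limma calls hold under some settings only. They number 0 when FPKM are divided by size factors, where 0 of all measured genes were called by limma, and 0 without the variance trend, where 0.493% were called higher. At an unadjusted p under 0.05 these settings had 4 and 3 members, and 11.1% and 10.5% of measured genes, against 4 members and 13% in the main comparison. Over the 6 alternatives the limma adjusted p ran from 3.99e-06 to 0.199 for NRPD1 and from 0.00200 to 0.441 for CLSY1, and over the 5 in which CLSY2 was tested from 0.000138 to 0.542.

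In the other cell types limma called 0 members in either direction. Of all measured genes, 6.19% were called higher and 0.473% lower in epidermis, 0.508% and 0.00508% in cortex, 1.91% and 0.249% in endodermis, and 0.961% and 2.01% in stele. At an unadjusted p under 0.05 there was 1 member in endodermis, CLSY3, whose log2 difference was 0.91 ± 0.306 (limma adjusted p = 0.0986), and 1 in stele, NRPD1, with -1.18 ± 0.599 (limma adjusted p = 0.357). Of all measured genes 8.63% and 13.9% passed that level in endodermis and stele, so 1 of 9 is near the background in both. Epidermis and cortex had 0, where 13.3% and 4.37% passed. CLSY3 reached 1 FPKM in endodermis line 1 alone, and so entered the tested genes through the group where its value was high. The mean taken off the stele level of NRPD1 holds the high columella root cap level, which makes that difference larger. Among single libraries NRPD1 was highest in columella root cap and lowest in stele. Its log2 level in stele lay only 0.16 below that in cortex, the next cell type, at values under 1 FPKM.

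Outside the columella root cap the members divided by their order of libraries. Over the remaining 5 libraries, as a description without a test, NRPD2 and CLSY4 had the same rank order (Spearman's rho 1, Pearson's r 0.98, n = 5), from epidermis up through endodermis line 1, cortex and endodermis line 2 to stele. CLSY1 and RDR2 had nearly the same order (r = 0.94, rho = 0.90), and so had NRPD2 and DCL3 (r = 0.93, rho = 0.90). For NRPD1 both measures were negative with NRPD2 (r = -0.67, rho = -0.50), CLSY4 (r = -0.61, rho = -0.50) and DCL3 (r = -0.56, rho = -0.70). With RDR2 and CLSY1 its r was -0.55 and -0.37, while rho, at -0.10 and -0.20, showed little order either way. Over all 6 libraries r between NRPD1 and CLSY1 was 0.91 and rho 0.31. The 5 or 6 points share libraries and include both endodermis lines. Outside the columella root cap NRPD1 was at only 0.211 to 0.753 FPKM and CLSY4 at 0.0343 to 1.21. No counting error can be set on such low values, so these orders are uncertain.

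Genes with the most similar pattern were ranked by Pearson's r of log2(FPKM + 1) over the 6 libraries among 15750 protein-coding genes with 5 FPKM or more in some library. For NRPD1 these were AT4G24290, AT3G55550 and NTT (AT3G57670), all with r of 0.997 or more, at 135, 51.3 and 33.6 FPKM in columella root cap and at most 53.2, 0.810 and 1.02 elsewhere. For CLSY1 they were HCF136 (AT5G23120), TLP6 (AT1G47270) and AT1G02740, with r of 0.994 or more. For RDR2 they were AT2G42730, TERT (AT5G16850) and IQD7 (AT1G17480), with r of 0.994 or more. TERT, the catalytic subunit of telomerase, was at 5.24 FPKM in columella root cap, 2.27 in stele and at most 1.27 elsewhere. NRPD2 was most like ULP1A (AT3G06910), AT5G13560 and AT2G01440, and SHH1 most like OS9 (AT5G35080), VAMP721 (AT1G04750) and GG1 (AT3G63420). Among the members themselves, CLSY1 was the gene ranked 43 for RDR2 (r = 0.97), and NRPD1 was ranked 389 for CLSY1 (r = 0.91). With 6 points, many genes reach such values.

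The rest of the pathway was then compared with the 9 genes. The other genes listed for Pol IV, Pol V and the DRM2 step numbered 31, of which 28 were measured. In columella root cap 1 of these 28 was enriched, where 5.44% of measured genes were, and none was depleted, where 1.11% were. The enriched gene was IDN2 (AT3G48670), a double-stranded RNA-binding protein of the Pol V step, at 53.6 FPKM against at most 19.3. In epidermis 1 of the 28 was depleted, where 0.966% of measured genes were. It was SUVH9 (AT4G13460), which recruits Pol V, at 2.82 FPKM against at least 10.4. None was enriched in stele, yet 17 of the 28 had their highest value there, as 28.6% of measured genes did, and 4 in columella root cap, against 23.2%. In stele, the median difference from the remaining cell types was 0.99 for 11 other Pol IV subunits and 0.89 for 17 measured genes of the Pol V and DRM2 arm, against 0.20 for the 9 members and 0.06 over all measured genes. In columella root cap the order was the opposite, with 0.09 and 0.29 for those lists and 1.25 for the 9 members. These measures are linked, because the mean subtracted in each holds the other cell type. A high columella root cap value therefore lowers the stele difference. CLSY1 had 0.10 in stele, although stele, at 2.82 FPKM, was its next library after columella root cap. Whether the lists differ was not tested.

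Single genes of these lists did not all stand higher in stele than in columella root cap. NRPB11 (AT3G52090), a subunit listed for Pol IV, was at 82.3 FPKM in columella root cap and 79.9 in stele. NRPD4 (AT4G15950), shared with Pol V, was at 10.5 FPKM in columella root cap and 18.2 in stele, and NRPB3 (AT2G15430), shared with RNA polymerase II, at 26.3 and 54.6. NRPB9B (AT4G16265) was at 6.38 FPKM in columella root cap, 6.61 in epidermis and between 14.2 and 31.0 in the other libraries. NRPB9A (AT3G16980), its paralogue, was the only one of the 11 with its highest value in columella root cap, at 5.40 FPKM against 0.572 to 4.24. AGO4 (AT2G27040), which carries the small RNAs, was at 22.2 FPKM in columella root cap and 60.1 in stele, and DRM2 (AT5G14620) at 10.5 and 9.49.

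**Figure D5:**
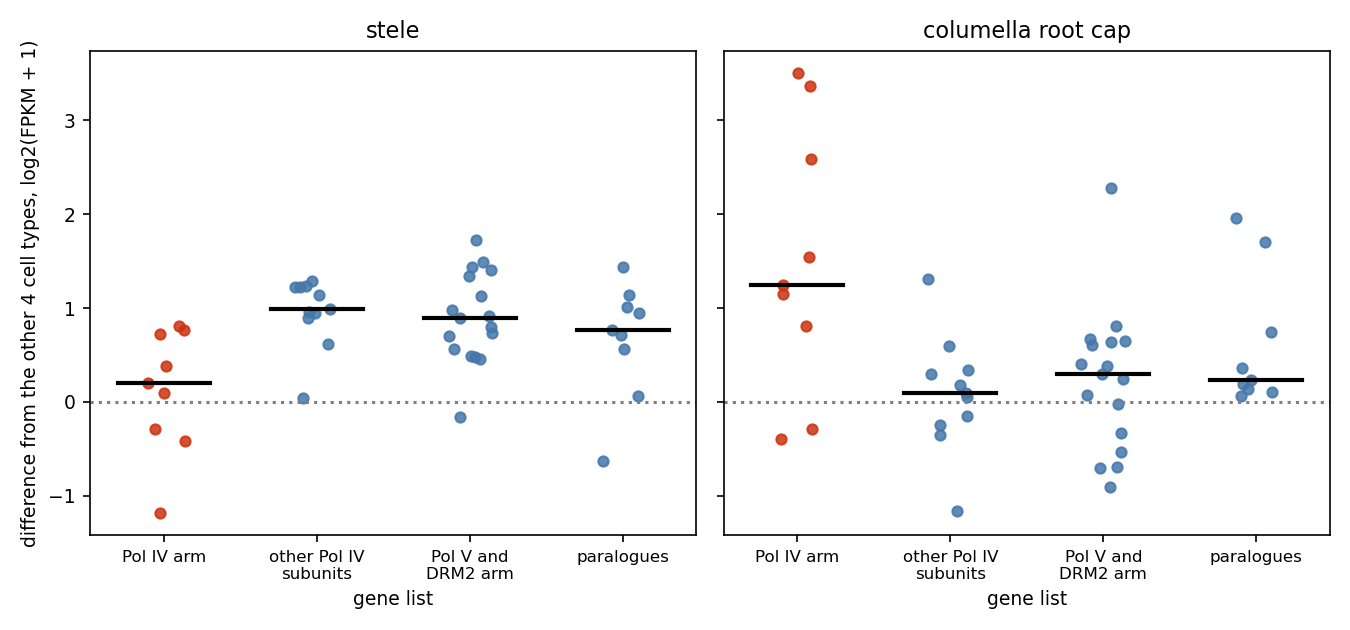
Difference of stele (left) and columella root cap (right) from the remaining 4 cell types, as a mean, on the log2(FPKM + 1) scale (y axis), 1 point per measured gene, spread sideways at random, with black bars at the list medians. The 9 genes of the Pol IV arm have a median of 1.25 in columella root cap and 0.20 in stele, where 11 other Pol IV subunits have 0.09 and 0.99. The mean subtracted in each panel holds the cell type of the other panel.

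Markers of other cells and states also moved with the columella root cap library. The summed level of 8 root cap markers was 539 FPKM there against 4.50 to 183 elsewhere, that of 7 xylem markers 815 against 13.7 to 265, and that of 5 stress genes 1239 against 69.3 to 962. The sum of 5 genes of dividing cells was 30.6 FPKM against 55.0 to 248. The sums of epidermis and root hair, cortex, endodermis and stele markers in columella root cap were 13.7, 2.94, 17.9 and 19.0 FPKM, against 873 in epidermis, 45.4 in cortex, 5515 and 514 in endodermis and 400.2 in stele, and none of these markers was at 0 there. All 7 xylem markers and all 5 stress genes were above their mean of the remaining cell types there. Of the other libraries, stele had the largest xylem sum, 265 FPKM. It was second to columella root cap for CLSY1, NRPD2, RDR2 and DCL3, and had the lowest NRPD1 value. Epidermis and endodermis line 1, with stress sums of 962 and 939 FPKM, had NRPD1 at 0.640 and 0.753 FPKM, CLSY1 at 0.523 and 1.11 and RDR2 at 1.33 and 1.68. The part of these cells and states in the levels of the 9 genes was not tested.

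The genes next to the members were listed from the annotation with their levels. Reads were not used here, so whether neighbours share reads was not tested. In the RefSeq annotation 7 of the 9 overlap no other gene. SHH1 (chr1:5238044-5240051) overlaps AT1G15220 on the opposite strand, which was at 4.46 to 9.68 FPKM, and DCL3 (chr3:15753387-15760859) overlaps AT3G43930 on the opposite strand. The latter reached 2.04 FPKM in epidermis, and 0.227 or less in the remaining libraries. NRPD1 (chr1:23354685-23362589, minus strand, 19 exons in its longest transcript) and RDR2 (chr4:6780449-6784632, plus strand, 4 exons) overlap none. The gene on one side of NRPD1, AT1G63010, was at 54.2 FPKM in columella root cap, 93.3 in epidermis and 4.97 to 37.9 elsewhere. Its part in the NRPD1 level was not tested.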

How the data were processed

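RNA of fluorescence-sorted root cells was sequenced from polyA+ libraries made with the Illumina TruSeq RNA kit, per the labels' protocols. The authors deposited FPKM, 1 file per library. The submitters' processing notes list Cufflinks 2.0.2, TopHat 1.3.1 and Bowtie 0.12.7, and as build TAIR10, without roles. The gene annotation, the strand setting and the handling of reads with several matches are not stated there, so near copies and overlapping genes are uncertain. FPKM give no counting interval, and an exact 0 can be a failed estimate.

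Libraries were grouped by the labelled cell type. Levels were compared on log2(FPKM + 1), which understates differences of low genes, by the rule of size and by limma 3.58.1 (R 4.3.3; moderated variances with a trend on level; the endodermis pair gives 1 residual degree of freedom). The labels do not say whether the lines were grown apart. The p-values measure the spread between the 2 endodermis lines, which stood 2-fold or more apart at 35.1% of measured genes. Technical spread and a difference between the lines or their sorted cells cannot be told apart in it. The rule for the members uses no measured value, but members, gene lists, motifs and tests were all proposed with earlier results of these data known. The text names all members, their paralogues, listed genes that were enriched or depleted, and the 3 genes most like each member at 5 FPKM or more. Other subunits, AGO4, DRM2 and neighbouring genes are examples chosen after their values were seen. RefSeq matched 32807 of 33554 loci and all 9 members, and its symbols for some differ, such as CHR38 for CLSY1. Sequences and positions are from RefSeq TAIR10.1, a build named differently from that of the authors, and no coordinate was taken from the deposited files. Protein sequences were not used here, and the promoter window of CLSY1 is not reported here. Code was tested on simulated data. Python 3.11.15 was used.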

Additional observations from a re-analysis of the deposited data

How the results depend on the processing

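The rule of size was repeated with 10 alternatives (pseudocount 0.1, 1 or 10 FPKM on the higher side, size factors, TPM, quantile normalization, 1.5-fold, the mean of the endodermis lines, and each line left out) and, chosen after seeing the data, without the epidermis or without the columella root cap library. In each alternative that held the columella root cap library, CLSY1, NRPD1 and RDR2 were enriched there, with log2 margins of 2.60 to 3.06, 2.98 to 4.06 and 1.44 to 1.64. CLSY2 joined them at 1 FPKM on the higher side, for 4 members, where 6.49% of measured genes were enriched, and its margin ran from 1.38 to 3.78. Over these alternatives 4.4% to 9.12% of measured genes were enriched there. No member became enriched in another cell type or depleted in any. The margin of CLSY3 in endodermis, 0.11, turned to -0.0051 with quantile normalization, for which the cause was not tested, and was 0.64 with the mean of the lines and 1.03 without line 2.

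The 3 limma calls in columella root cap became 0 with size factors, 0 without the variance trend and 1, CLSY2, with no filter on low values. Over all genes tested, the number called higher fell as well, from 926 to 0, 97 and 93. These settings had finite prior degrees of freedom (5.93, 9.15 and 1.22), against an infinite prior otherwise, and whether that is the cause was not tested. The differences themselves kept their sign. Leaving out a line gives limma no residual degrees of freedom, so it was not run. The CLSY1 share in endodermis was 32.8% from line 1 and 58.9% from line 2. No paired analysis was possible because only endodermis has more than 1 library. Without read totals no counting error can be set on the lowest values, such as those of CLSY2 under 0.1 FPKM in 5 libraries, and their order among those libraries is not described.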
